A study of Homo sapiens with 2 samples.

Results

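Promoter peaks of LDB1 were the subject: the deposited LDB1 peaks whose midpoint lay within 1000 bp of the transcription start site (TSS) of any transcript of a protein-coding gene in GENCODE release 44 (build hg38). Of 11046 peaks, 1514 met this rule (13.7%, 95% interval 13.1 to 14.4%), and each was assigned to the nearest such TSS. The remaining 9532 peaks are called the other peaks. The series holds 2 CUT&Tag libraries, in which a tethered transposase cuts DNA next to an antibody's target. Both came from NB4, an established human line grown from acute promyelocytic leukemia. One library was made with an LDB1 antibody, and its label names LDB1 overexpression, which the study's account of its CUT&Tag does not mention. Whether the peaks reflect the cells' own or overexpressed LDB1 is therefore unknown. The second was made with IgG and is labelled untreated, so that antibody and treatment differ together. Each group was a single library, so nothing could be tested between groups and no replicate error is known. The peak file gives a start, an end and a length in bp but no height, score or summit, and the read depth behind it is unknown. The IgG library was not analysed here. Every interval below is a 95% interval, with the Wilson method for shares and the Newcombe method for differences between shares. It covers counting error within this library and treats peaks or genes as independent.

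LDB1 does not bind DNA itself. It dimerizes and, through LMO2 and related LIM-only proteins, joins DNA-binding partners of the TAL1 and GATA families, which read an E-box and a GATA site on the same stretch of DNA. In blood cells this complex is best known at enhancers and promoters of red cell genes, where dimerization of LDB1 can bring an enhancer close to a promoter. A promoter is the sequence around the TSS at which RNA polymerase is loaded, and many genes have several annotated starts. The start of the transcript that the annotation names as canonical is called the canonical TSS, and all others are called alternative TSS.

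In the promoter peaks, the composite element of the complex was searched. It is CTG followed, after 7 or 8 bases, by a GATA motif on either strand. The GATA motif had 4 forms, of which the first was AGATAA, the second was AGATAG, the third was TGATAA and the last was TGATAG. The composite occurred 332 times in 307 of the 1514 promoter peaks (20.3%, 18.3 to 22.4%). Most promoter peaks held none, and among other peaks the share with a composite was 22.7% (21.9 to 23.5%). The 10 promoter peaks whose composite was nearest to the TSS are printed in the direction of the motif with CTG and the GATA part in capitals. The distance is from the centre of the composite to the TSS, and here and below a negative distance is upstream. All coordinates are hg38 and counted from 1.
NT5DC4 (chr2:112721004-112721033, plus strand, -1 bp): agagtggCTGggccccacTGATAGtgtgca
CCRL2 (chr3:46407153-46407182, minus strand, 1 bp): ccgtcttCTGgccttctgAGATAAgggaac
RPH3AL (chr17:339099-339128, minus strand, -2 bp): gagacagCTGggcccacAGATAGcaggcga
TXNDC2 (chr18:9885747-9885776, plus strand, -4 bp): ggggatcCTGgagaaagaTGATAAgatggt
OCRL (chrX:129557843-129557872, minus strand, -4 bp): gctgtgaCTGagctagagAGATAAggttca
IFITM3 (chr11:329466-329495, minus strand, -5 bp): taagtagCTGggcaggcTGATAAggacaga
CYB5R3 (chr22:42647049-42647078, plus strand, 6 bp): atggggcCTGcatgtcttAGATAAgacacc
STC2 (chr5:173324279-173324308, minus strand, -7 bp): ctccgggCTGcgcgaggtTGATAAgggagc
SFXN3 (chr10:101034669-101034698, minus strand, -9 bp): ccattttCTGcaggacagAGATAAgggtca
RGCC (chr13:41464085-41464114, plus strand, -15 bp): aggccagCTGcttgtgggAGATAGagagcg

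These 10 composites lay between -15 and 6 bp of the TSS. The genes have unlike roles. CCRL2 is an atypical chemokine receptor and IFITM3 an interferon-induced antiviral membrane protein. CYB5R3 is the reductase that turns methemoglobin back into hemoglobin. STC2 is a secreted glycoprotein, OCRL an inositol phosphatase, and SFXN3 a mitochondrial serine carrier. In 8 of the 10 the spacing was 8 bases, and in RPH3AL and IFITM3 it was 7. The central 31 bases of each of the 10 peaks occurred once in hg38. The shortest of the 10 peaks was that of OCRL at 247 bp and the longest that of RGCC at 1012 bp.

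The next set shows composites at promoters of genes known from red cells and platelets and of genes that encode parts of the complex, 1 per gene, the one nearest to the TSS. These genes were chosen after their values were seen.
KLF1 (chr19:12887245-12887274, plus strand, -58 bp): tgattggCTGcagcctcTGATAAggcaaag
LYL1 (chr19:13102862-13102891, plus strand, -153 bp): aggctgcCTGgccgcgccTGATAAggagcc
GATA1 (chrX:48785968-48785997, minus strand, -558 bp): gcctgccCTGgggcagcAGATAAgtcttat
CBFA2T3 (chr16:88977086-88977115, plus strand, 106 bp): cagccagCTGtgtccccgTGATAAtgccgg
NFE2 (chr12:54295883-54295912, plus strand, -138 bp): ggctcccCTGcctgggccAGATAAgaggtt
PPOX (chr1:161166577-161166606, minus strand, -87 bp): cggcgctCTGctgggtgcAGATAAgggcca
CPOX (chr3:98593507-98593536, minus strand, 127 bp): gcaggcaCTGctccaggTGATAGtgcggga
UROD (chr1:45012789-45012818, plus strand, 18 bp): agctggcCTGgaggaggtAGATAGcggtcc
EPB42 (chr15:43221067-43221096, minus strand, -63 bp): gggcctcCTGgcacaagAGATAAaatgaac
SPTB (chr14:64879976-64880005, plus strand, -84 bp): atcgctgCTGccgggaccAGATAGtcccgc
RHAG (chr6:49636847-49636876, plus strand, -23 bp): tcacaggCTGtgagatgtTGATAAgaacaa
KEL (chr7:142962414-142962443, minus strand, -222 bp): ttctcccCTGagaagctgAGATAAaggggg
TFR2 (chr7:100641585-100641614, minus strand, -85 bp): aggctgcCTGccaggacTGATAAggggccc
GP6 (chr19:55038430-55038459, minus strand, -180 bp): cgccaggCTGgccagaggAGATAAgcgcgg

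Among them, KLF1 and GATA1 encode master transcription factors of red cells. LYL1 is a TAL1-related partner in the complex, CBFA2T3 a co-repressor bound to it, and NFE2 a factor of globin and platelet genes. PPOX, CPOX and UROD are enzymes of heme synthesis. EPB42 and SPTB are proteins of the red cell membrane skeleton, while RHAG and KEL carry blood group antigens. TFR2 is an iron sensor that binds transferrin, and GP6 is the collagen receptor of platelets. The letters between CTG and the GATA part differed from gene to gene.

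Sequence upstream of the starts of 3 genes is shown with every GATA motif in capitals, together with the CTG of a composite. These stretches lie inside the peak and overlap no annotated exon. They were chosen after the values were seen, to show how many GATA motifs a promoter peak can hold.
EPB42 (chr15:43221019-43221258, minus strand): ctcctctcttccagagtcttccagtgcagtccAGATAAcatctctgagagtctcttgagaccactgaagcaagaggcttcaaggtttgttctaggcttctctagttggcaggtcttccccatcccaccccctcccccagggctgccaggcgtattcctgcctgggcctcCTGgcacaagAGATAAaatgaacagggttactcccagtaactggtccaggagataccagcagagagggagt
HEMGN (chr9:97938192-97938431, minus strand): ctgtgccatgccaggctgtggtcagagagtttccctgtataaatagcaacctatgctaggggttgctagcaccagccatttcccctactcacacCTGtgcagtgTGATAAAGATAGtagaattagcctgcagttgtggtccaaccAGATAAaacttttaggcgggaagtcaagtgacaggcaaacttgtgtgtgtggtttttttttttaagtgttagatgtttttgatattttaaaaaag
CPOX (chr3:98593649-98593888, minus strand): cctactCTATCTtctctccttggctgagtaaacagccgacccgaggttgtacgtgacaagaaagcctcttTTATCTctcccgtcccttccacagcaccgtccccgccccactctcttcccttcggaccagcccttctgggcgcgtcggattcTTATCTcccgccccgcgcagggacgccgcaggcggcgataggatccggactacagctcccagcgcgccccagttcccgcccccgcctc

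In the stretch upstream of EPB42, from -240 to -1 bp, there were 2 GATA motifs and 1 composite. HEMGN, which encodes a nuclear protein of red cell precursors, had 3 GATA motifs and 1 composite from -259 to -20 bp. The stretch of CPOX, from -240 to -1 bp, had 3 GATA motifs and no composite. Its composite, printed above, lay downstream of the TSS at 127 bp.

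The letters of the composites in promoter peaks were then set against those of the 2389 composites in other peaks. CTG was part of a full E-box, CANCTG, in 45 of 332 composites (13.6%, 10.3 to 17.7%) and in 13.9% of those in other peaks. The GATA part was AGATAA in 48.8% and 52.7%, TGATAA in 24.1% and 24.5%, AGATAG in 19.3% and 15.3%, and TGATAG in 7.83% and 7.53%, in that order. A G followed the GATA part in 45.2% and 43.3%. The spacing was 8 bases rather than 7 in 63.9% (58.6 to 68.8%) and 63.8%. All of these differences had intervals that include 0, the largest being 3.999 points (-0.163 to 8.79) for AGATAG. No difference in the composite itself was therefore detectable between promoter and other peaks with 332 composites.

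Next, the position of each peak was measured relative to its TSS. Results showed that 786 promoter peaks (51.9%, 49.4 to 54.4%) covered the TSS to which they were assigned, and 663 (43.8%) had their midpoint within 200 bp of it. The midpoint was upstream in 777 (51.3%, 48.8 to 53.8%). Only part of the promoter peaks stood at a canonical start. A canonical TSS was within 1000 bp of 727 peaks (48.0%, 45.5 to 50.5%), and 787 peaks (52.0%) were near alternative TSS only. The nearest TSS was itself canonical for 295 peaks (19.5%, 17.6 to 21.6%), and canonical TSS make up 13.7% of the 146431 distinct TSS of protein-coding genes. The transcript at the nearest TSS was annotated as protein-coding for 910 peaks (60.1%, 57.6 to 62.5%). For the rest it was another type of transcript of the gene, such as a retained intron (15.1%).

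**Figure D1:**
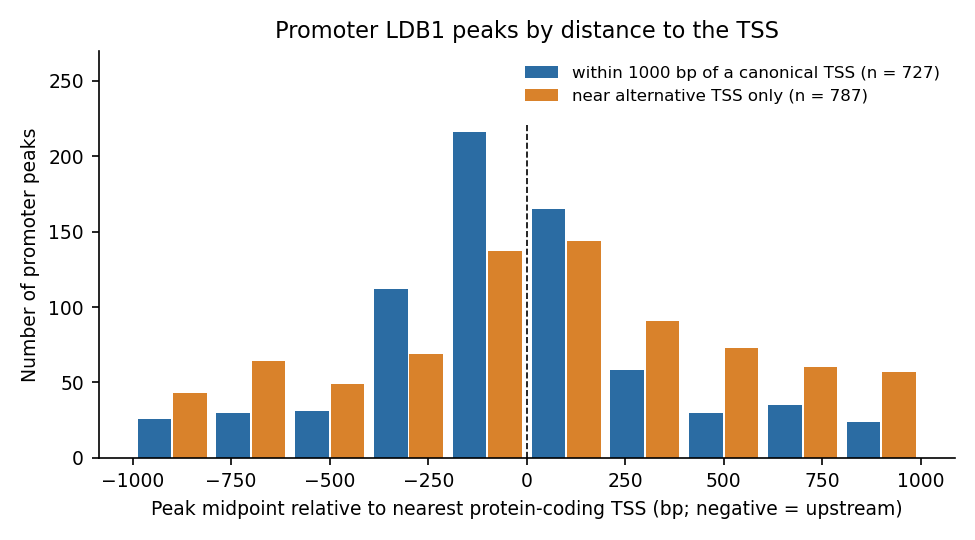
Number of promoter peaks by the distance of the midpoint to the nearest protein-coding TSS, in bins of 200 bp, for peaks within 1000 bp of a canonical TSS (blue) and near alternative TSS only (orange). The highest bin is that from -200 to 0 bp for the former, with 216 peaks, and that from 0 to 200 bp for the latter, with 144.

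Peaks at canonical starts, meaning within 1000 bp of a canonical TSS, sat closer to the nearest TSS of any transcript than the rest. Their median distance to the nearest TSS was 191 bp (167 to 207), compared with 324 bp (299 to 368) for peaks near alternative TSS only. They covered that nearest TSS in 57.8% (54.1 to 61.3%) and were upstream of it in 57.1% (53.5 to 60.6%), compared with 46.5% and 46% (42.5 to 49.5%). Measured to the canonical TSS itself, 42.2% of the 727 peaks covered it. In terms of the canonical transcript, peaks near alternative TSS only had their midpoint in an intron in 74.2% (71.0 to 77.1%), and upstream of the transcript in 16.5%. Those at canonical starts were upstream in 57.1%, in an intron in 26.1%, in an untranslated exon in 11% and in a coding exon in 5.64%. A peak in an intron that lies near the start of a shorter transcript cannot be told apart here from an intronic site.

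The rule reached some shared promoters. In 99 promoter peaks (6.54%) the TSS of 2 or more protein-coding genes lay in reach, and in 67 (4.43%) TSS on both strands did. A lncRNA TSS was also in reach of 163 (10.8%). At the edge of the rule stood VAC14 with its midpoint at -999 bp, ZDHHC3 at 999 bp and a peak of PLEC at 999 bp. Just outside were PTRH2 at -1002 bp and NT5C2 and MBNL1, both at -1008 bp.

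Promoter and other peaks had similar median lengths, and long peaks were somewhat more frequent among promoter peaks. Their median length was 467 bp (451 to 486), with quartiles of 319 and 699.5 bp (range 229 to 4718 bp). Other peaks had a median of 449 bp (442 to 456), a ratio of 1.04. Lengths of 1000 bp or more were found in 194 promoter peaks (12.8%, 11.2 to 14.6%) and in 10.1% of other peaks, a difference of 2.67 points (0.961 to 4.54). The central 31 bases were repeated in hg38 in 69 promoter peaks (4.56%) and in 11.7% of other peaks, a difference of -7.12 points (-8.27 to -5.79). Another peak lay within 5000 bp of 44.5% of promoter peaks and of 42.7% of other peaks, with a difference of 1.77 points whose interval includes 0 (-0.903 to 4.48).

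The longest promoter peak, at 4718 bp, spanned the start of SLC4A1 (ENSG00000004939.16, chr17:44265279-44269996), the anion exchanger of the red cell membrane. It held 6 GATA motifs and 1 composite. The second, at 4273 bp, lay in NFE2 (ENSG00000123405.14, chr12:54294173-54298445) with 7 GATA motifs and 3 composites, and its central 31 bases occurred 1098 times in hg38, which makes its placement uncertain. TFR2 had a peak of 3004 bp (chr7:100640027-100643030) with its midpoint at -14 bp. BLVRB, which encodes biliverdin reductase B, had one of 2636 bp (chr19:40464286-40466921) at 132 bp. KCNN4, the calcium-activated potassium channel of red cells, had one of 3115 bp (chr19:43773531-43776645) whose central bases occurred 23 times.

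The rest of the 10 longest promoter peaks were at USP20, a deubiquitinase, with 3861 bp, NFIX, a nuclear factor, with 3250 bp, ASIC4, an acid-sensing channel subunit, with 2904 bp, NOS3, endothelial nitric oxide synthase, with 2726 bp, and PHGDH, the entry enzyme of serine synthesis, with 2676 bp. The NFIX peak (chr19:13068212-13071461) lay in intron 2 of its canonical transcript, and the peak of USP20 in its exon 25. The NOS3 peak lay in intron 17. Of the 10 longest peaks, 6 were near alternative TSS only.

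Most genes had a single promoter peak. The 1514 peaks fell on 1220 of 20033 protein-coding genes, so that percent with a peak was 6.09 (5.77 to 6.43%). It was 3.42% when only peaks from the median length upwards were used. Of these genes 1007 had 1 promoter peak, 157 had 2, 38 had 3, 11 had 4 and 7 had 5. The 7 were NOS3, SLC7A8 (an amino acid transporter), GSE1, PLEKHA4, KSR1 (a scaffold of the MAP kinase cascade), MICAL2 and PLEC (the cytolinker plectin). The spans of their promoter peaks reached from 10738 bp in PLEKHA4 to 442651 bp in GSE1. Next by number came PHGDH, KCNH2 and DMTN with 4 each. TAL1, the partner of LDB1, also had 4 within 4077 bp.

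Genes with many annotated starts had promoter peaks more often, and more starts also give more sequence in which a peak counts. Among 3130 genes with 1 TSS, 51 had a promoter peak (1.63%, 1.24 to 2.14%), and among 978 genes with more than 20 TSS, 136 did (13.9%, 11.9 to 16.2%). The median number of distinct TSS was 9 for genes with a promoter peak, 13.5 for those with 3 or more, and 5 for all. Counting canonical TSS only, where each gene has the same window, 3.43% of genes had a peak (688 genes). The share still went from 1.85% (1.44 to 2.39%) of genes with 1 TSS to 5.01% (3.81 to 6.56%) of genes with more than 20.

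Genes with a promoter peak also had other peaks in their bodies more often, at every gene length. Among genes under 10 kb, 9.33% of the 193 with a promoter peak and 1.74% of the 4939 without one had a further peak between their ends. Between 30 and 100 kb the shares were 50.1% and 14.6%. Over 100 kb they were 70.9% (64.9 to 76.2%) and 26.0% (24.5 to 27.5%), a difference of 44.9 points (38.7 to 50.4).

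To compare base composition, the central 200 bp of each peak were used. Promoter peaks were richer in GC, with a median of 58.5% (57.5 to 58.5%) against 51.0% (50.5 to 51.0%) for other peaks. The ratio of observed to expected CpG was 0.347 (0.327 to 0.363) and 0.2 (0.197 to 0.204). At canonical starts these values were 62% and 0.557 (0.531 to 0.598), and near alternative TSS only 55.5% and 0.245 (0.229 to 0.265). Peaks near alternative TSS only were thus closer to the other peaks in CpG than to those at canonical starts, by these medians and intervals.

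Motifs were counted in the same 200 bp, on both strands. The GATA motif, in any of its 4 forms, was found in 534 promoter peaks (35.3%, 32.9 to 37.7%) and in 49.0% of other peaks, a difference of -13.7 points (-16.3 to -11.1). The composite, which contains a GATA motif, was found in 150 (9.91%, 8.50 to 11.5%) and in 11.3%, a difference of -1.42 points (-2.97 to 0.301). In windows 1000 bp to either side of the promoter peaks the shares were 21.4% for the GATA motif and 1.39% for the composite, lower by ratios of 1.65 and 7.14. The TAL1 E-box (CAGATG or CAGCTG) was found in 30.8% of promoter peaks, 34.3% of other peaks and 24.2% of the flanking windows. Canonical promoters were searched in the 200 bp around the TSS, not around a peak midpoint, so their shares are not directly comparable. Among them as a whole, 10% held a GATA motif, 0.579% a composite and 19.5% a TAL1 E-box. In canonical promoters with and without a peak, the GATA motif was in 13.8% and 9.86%, and the composite in 3.63% and 0.470%. For the TAL1 E-box these shares were 21.8% and 19.4%.

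The lower share of GATA motifs went with base composition. Within classes of equal GC content, 5 points wide, the difference between promoter and other peaks was -0.407 points (-3.10 to 2.28) for the GATA motif and 1.32 points (-0.421 to 3.05) for the composite, over 1450 promoter peaks. From 45 to 55% GC, GATA motifs were in 51.5% of 456 promoter peaks and 54.1% of 5304 other peaks. From 65% GC upwards they were in 12.8% of 390 and 17% of 341. The TAL1 E-box remained lower in promoter peaks within GC classes, by -4.35 points (-7.18 to -1.52).

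Motifs of several other factors stood higher in promoter peaks than in other peaks. The GC box of SP and KLF factors (GGGCGGG) was in 18.7% (16.8 to 20.7%) and 3.71% of other peaks, and within GC classes the difference was 6.06 points (3.93 to 8.19). The CTCF core (AGGGGGC) was in 10.6% and 3.86%, with 2.54 points (0.696 to 4.39) within GC classes. The NFY motif (CCAATA, with C or G also allowed at its end) was in 15.8% and 15.9%, and only within GC classes did a difference appear, of 3.32 points (1.25 to 5.39). The ETS motif (CCGGAAG or CAGGAAG) was in 14.6% and 11.4%, with 1.29 points (-0.881 to 3.46) within GC classes. Canonical promoters were searched around the TSS, not around a peak midpoint, so their shares are not directly comparable. In those 200 bp they were 37.9% for the GC box, 12.9% for CTCF, 22.5% for NFY and 18.85% for ETS. The GC box was in 46.2% of canonical promoters with a peak and 37.6% without, a difference of 8.58 points (4.83 to 12.4). For CTCF the shares were 12.2% and 12.95%, for NFY 21.2% and 22.6%, and for ETS 20.1% and 18.8%. The intervals of these last differences included 0. Of the 18 motifs searched, 4 had an interval without 0 within GC classes, namely the GC box, CTCF and NFY motifs and the TAL1 E-box.

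**Figure D2:**
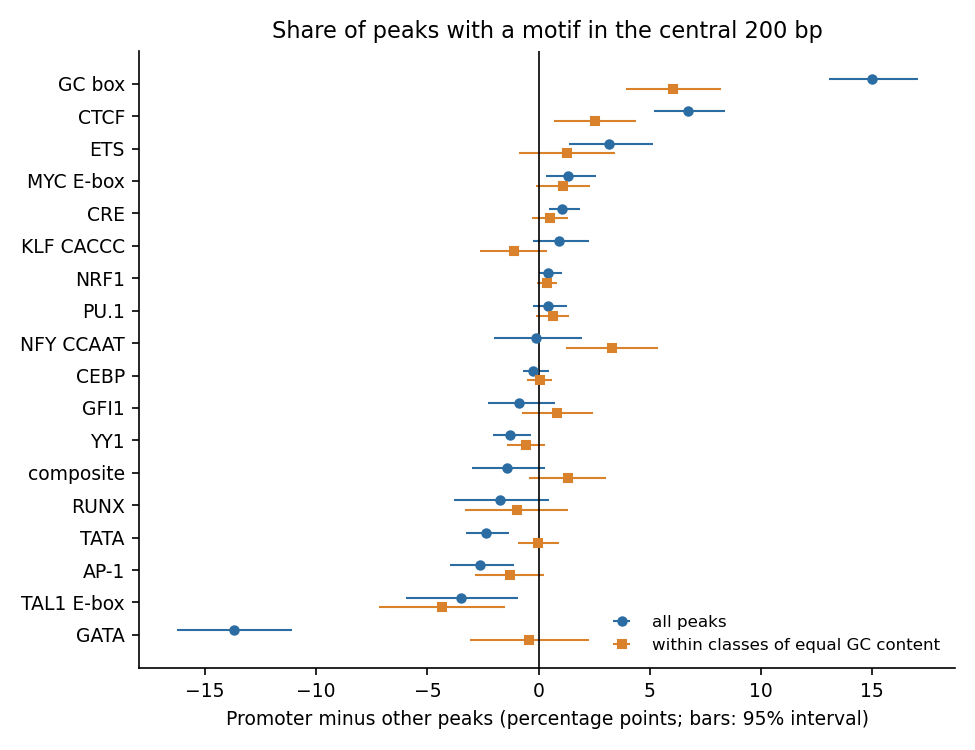
Difference between promoter and other peaks in the share that holds each motif in the central 200 bp, in percentage points with 95% intervals, for all peaks (blue) and within GC classes (orange). The GATA difference is -13.7 points for all peaks and -0.407 within GC classes, while the GC box stays above 0 in both.

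Promoter peaks at canonical and at alternative starts were then compared, without GC classes. The GATA motif was in 27.8% (24.6 to 31.1%) of the former and 42.2% (38.8 to 45.7%) of the latter, a difference of -14.4 points (-19.1 to -9.61). The composite was in 8.12% and 11.6%, a difference of -3.45 points (-6.45 to -0.432). The GC box was in 29.3% and 8.90%, a difference of 20.4 points (16.5 to 24.3). Searching whole peaks, a GATA motif was present in 50.9% and 68.1%, and a composite in 16.2% and 24% of them. By length, the composite was in the central 200 bp of 4.21% of the 380 shortest promoter peaks (229 to 319 bp) and of 14.9% of the 375 from 468 to 698 bp, and of 11.9% of the 379 longest (700 to 4718 bp).

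The comparison was then turned round, from the peaks to all canonical promoters. The 688 canonical promoters with a peak were set against the 19345 without one, over 500 bp to either side of the TSS. A composite was present in 88 (12.8%, 10.5 to 15.5%) and in 3.33%, a difference of 9.46 points (7.16 to 12.2). A GATA motif was present in 58.3% and 48.9%, a difference of 9.35 points (5.56 to 13.0). The GC box was in 73.7% and 62.8%, the largest difference among the motifs searched, at 10.9 points (7.40 to 14.1). The CTCF core was higher by 6.08 points (2.34 to 9.88) and the TAL1 E-box by 6.01 (2.41 to 9.40). The CACCC motif of KLF factors was higher by 5.155 points (2.01 to 8.57). The AP-1 and ETS motifs were higher by 3.85 (1.47 to 6.63) and 3.82 points (0.0255 to 7.61). The TATA motif (TATAAA) was in 16.0% and 23.6%, a difference of -7.57 points (-10.2 to -4.58). Intervals of the remaining motifs included 0. The composite was more frequent with a peak in each class of CpG content. Where the CpG ratio was under 0.2, it was in 25.9% (16.4 to 38.4%) of promoters with a peak and 7.86% without. Where the ratio was 0.8 or more, it was in 8.78% (5.63 to 13.5%) and 1.76%.

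Composites were not spread evenly around the TSS. In promoter peaks, their density was 0.543 per kb of peak (0.431 to 0.673, exact Poisson interval) from -200 to 0 bp, with 82 composites, and 0.237 per kb (0.165 to 0.329) from 0 to 200 bp, with 35. Over the whole 1000 bp upstream it was 0.439 per kb (0.379 to 0.507), and downstream 0.308 (0.257 to 0.365). CTG came first on the strand of the gene in 178 of 332 (53.6%, 48.2 to 58.9%), so no preferred direction was detectable.

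**Figure D3:**
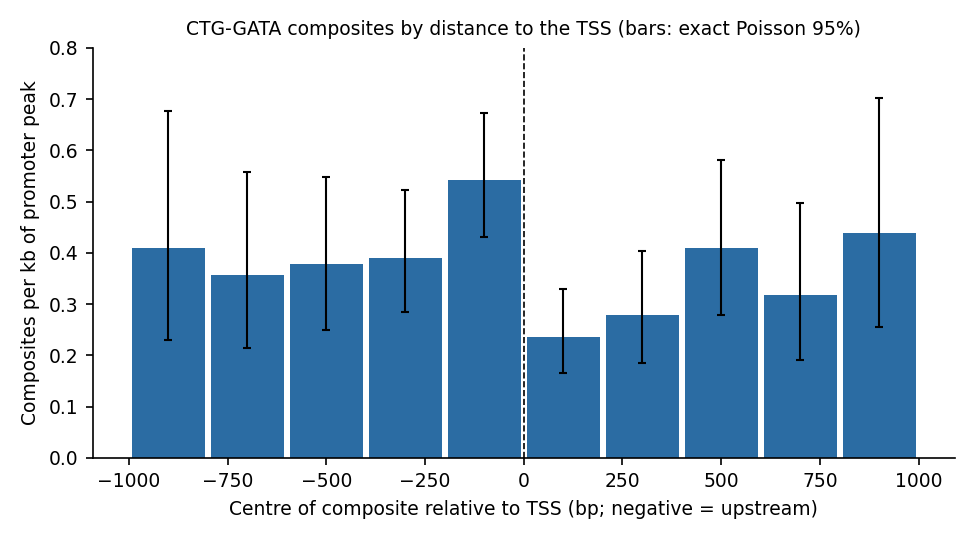
Composites per kb of promoter peak by distance to the TSS, in bins of 200 bp (bars), with exact Poisson 95% intervals. The bin just upstream of the TSS is highest at 0.543 per kb, and the bin just downstream is lowest at 0.237.

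To see which genes the promoter peaks belong to, lists of genes by cell type and function were counted beside the share of all protein-coding genes, which was 6.09%. The lists were chosen with earlier results of these data known, so their shares and ranks are not independent evidence. Among the lists counted, the red cell list stood highest. Of 45 genes of the red cell membrane, globins and heme, 31 had a promoter peak (68.9%, 54.3 to 80.5%), and 26 had one at the canonical TSS, where the share of all genes was 3.43%. Their 46 promoter peaks covered the TSS in 76.1% (62.1 to 86.1%), and the promoter peaks of all other genes in 51.2%. In whole peaks, a search added after the data were seen, a composite was present in 15 of the 46 (32.6%) and in 19.9% of the 1468 others, a difference of 12.7 points (0.785 to 27.3). A GATA motif was present in 80.4% and 59.2%, a difference of 21.2 points (7.41 to 30.5). Per kb of peak, these were 0.447 and 0.357 composites, and 2.34 and 1.87 GATA motifs. In the central 200 bp a composite was in 7 of the 46 (15.2%, 7.57 to 28.2%) and in 9.74% (8.33 to 11.4%) of the others, with intervals that overlap, and a GATA motif in 54.3% (40.2 to 67.8%) and 34.7% (32.3 to 37.1%). Median lengths were 518.5 bp (394 to 796) and 466 bp (449 to 485), with intervals that overlap. The red cell genes are described by role, in groups made after their values were seen.

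**Figure D4:**
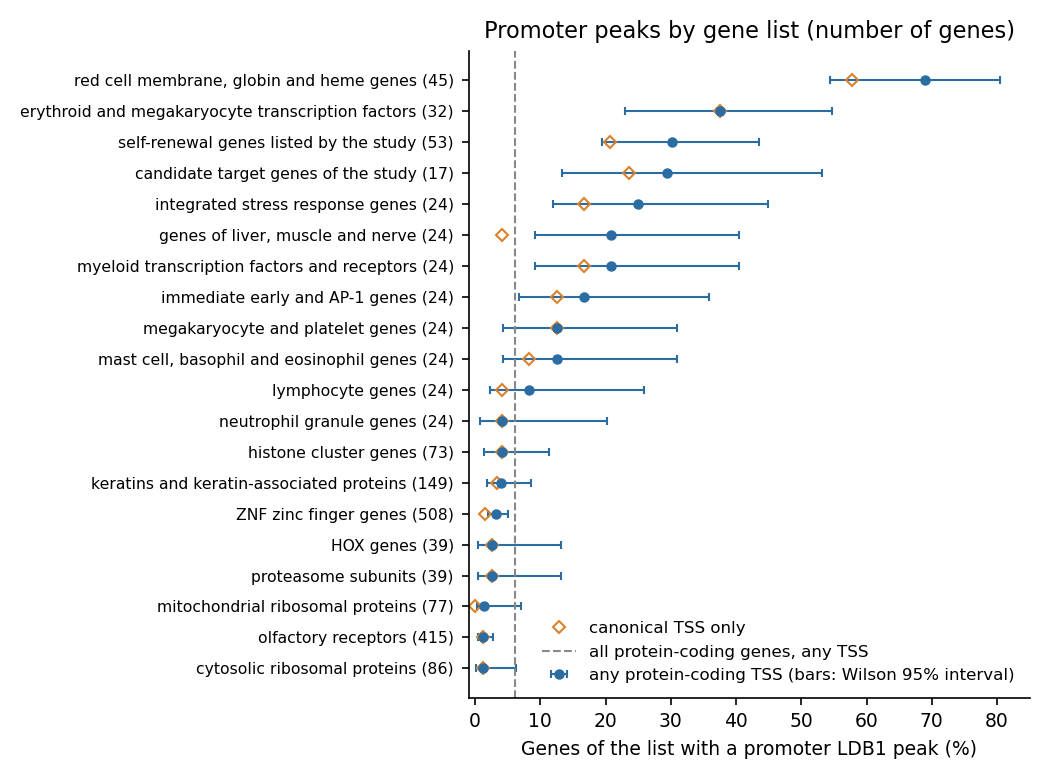
Share of the genes of each list with a promoter peak at any protein-coding TSS (blue, Wilson 95% intervals) and at the canonical TSS (orange), with the share of all protein-coding genes as a dashed line at 6.09%. The red cell list is highest at 68.9%, and olfactory receptors and cytosolic ribosomal proteins are lowest at 1.20% and 1.16%.

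Heme is built by a chain of enzymes, and promoter peaks were found at the genes of several of them. ALAD had 2, of 354 and 350 bp, and the midpoint of the latter was at 0 bp from its TSS. UROS had 3 of 389 to 726 bp, all near alternative TSS. UROD had 1 of 796 bp at -19 bp with 2 composites, CPOX 1 of 783 bp at -138 bp, and PPOX 1 of 1410 bp at -28 bp. The enzymes at the ends of the pathway, ALAS2 and FECH, had no promoter peak, though ALAS2 had 2 peaks and FECH 1 elsewhere in the gene.

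Genes of the membrane skeleton had promoter peaks beside SLC4A1. SPTB (beta spectrin) had one of 1847 bp at 36 bp, ANK1 (ankyrin) one of 1762 bp at -578 bp, EPB42 one of 734 bp at -128 bp with 6 GATA motifs and 2 composites, and EPB41 one of 876 bp at an alternative TSS. DMTN (dematin) had 4, of 268 to 2176 bp.

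Blood group and glycophorin genes also had promoter peaks. GYPC had 2, of 537 and 432 bp, KEL 1 of 679 bp with 5 GATA motifs, RHAG 1 of 365 bp at 14 bp, and ERMAP 1 of 1265 bp with 6 GATA motifs. The peaks of GYPB, RHD and RHCE had central sequences found 2 or 3 times in hg38. Reads from these near-identical copies may have been split or swapped between them, so their peaks are uncertain. XK, a membrane protein that pairs with KEL, had none.

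Among 10 genes, the globin genes and their chaperone AHSP, only HBD and HBZ had a promoter peak. That of HBD, the delta globin gene, was 352 bp long with its midpoint at 9 bp. HBZ, an embryonic globin gene, had 2. One of 1739 bp (chr16:142320-144058) lay at an alternative TSS far upstream, with NPRL3 as the gene of the nearest canonical TSS. The second, of 970 bp, lay at the canonical start, and the central bases of the latter occurred 2 times in hg38. HBA1, HBA2, HBB, HBG1, HBG2, HBE1, HBM and AHSP had none. HBG2 and HBE1 each had 6 other peaks between the ends of their annotated transcripts. These counts were made gene by gene, so a peak that lies between the ends of both genes counts for each.

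Other red cell genes with promoter peaks were EPOR, the erythropoietin receptor, with 2 of 747 and 343 bp, HEMGN with 500 bp at -162 bp, BPGM, the enzyme that makes the oxygen regulator of hemoglobin, with 416 bp, CA1 (carbonic anhydrase) with 241 bp at -70 bp and TRIM58 with 314 bp at 242 bp. The mitochondrial iron and heme carriers SLC25A37, SLC25A38 and ABCB10 had them too, with longest peaks of 1405, 394 and 1116 bp. TFRC, the transferrin receptor, and CA2 had none.

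**Figure D5:**
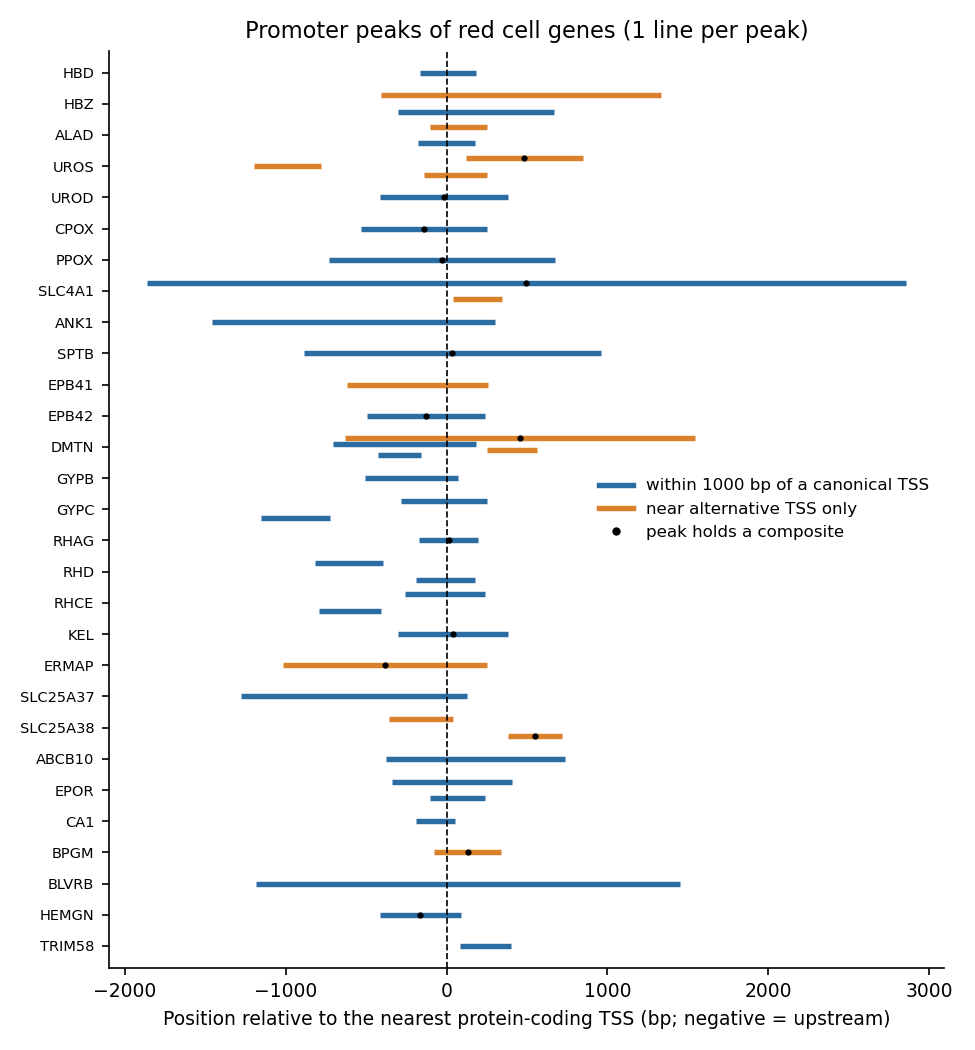
Extent of 42 of the 46 promoter peaks of red cell genes relative to the assigned TSS (1 line per peak, blue within 1000 bp of a canonical TSS, orange near alternative TSS only), with a dot at the middle of each peak that holds a composite. Of the 42 lines, 32 cross the TSS at 0 bp, and the longest is that of SLC4A1.

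Genes that encode the complex itself and other erythroid and megakaryocyte transcription factors had a promoter peak in 12 of 32 (37.5%, 22.9 to 54.7%), all at the canonical TSS. Of 14 genes of the complex, 7 had one. LMO2 had a peak of 530 bp (chr11:33891831-33892360) at -19 bp with 2 GATA motifs, and LYL1 one of 1856 bp (chr19:13101825-13103680) at -28 bp. The 4 peaks of TAL1 were 804, 681, 584 and 260 bp long. GATA1 had one of 1936 bp (chrX:48784889-48786824) at -684 bp with 6 GATA motifs, and CBFA2T3 one of 1854 bp at 50 bp. SSBP3 and SSBP4, which encode stabilizers of LDB1, had peaks within 1000 bp of their canonical TSS, at -169 and 53 bp from the nearest TSS. The midpoint of the SSBP4 peak lay upstream of its canonical transcript. LDB1 itself, GATA2 and the E-proteins TCF3, TCF4 and TCF12 had no promoter peak.

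KLF1, the factor of adult globin expression, had a promoter peak of 2558 bp (chr19:12885812-12888369) with 9 GATA motifs and 3 composites, and NFE2 had a further one of 1240 bp at its canonical start. ZBTB7A, a repressor of fetal globin, had a peak of 306 bp, ZFPM1, a cofactor of GATA1, one of 249 bp, and HHEX one of 536 bp.

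Genes of other blood lineages were counted next. Of 24 megakaryocyte and platelet genes, 3 had a promoter peak (12.5%, 4.34 to 31%), which were GP1BB with 2240 bp, ITGA2B with 823 bp and GP6 with 670 bp. Of 24 genes of neutrophil granules, which promyelocytes make, 1 did (4.17%, 0.739 to 20.2%). That was PADI4, with 342 bp at 63 bp. MPO, ELANE, PRTN3 and AZU1 had none. Of 24 mast cell, basophil and eosinophil genes, HDC, SIGLEC6 and MS4A3 had one (12.5%, 4.34 to 31%). Of 24 lymphocyte genes, CD247 and TCF7 did (8.33%, 2.32 to 25.9%). With any TSS counted, the interval of each of these lineage lists included 6.09%, the share of all protein-coding genes. A list of peaks does not measure expression, so the label NB4 was not tested by these counts.

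Among 24 myeloid transcription factors and receptors, 5 had a promoter peak (20.8%, 9.24 to 40.5%). SPI1, which encodes the master factor PU.1, had one of 1348 bp (chr11:47377702-47379049) at 16 bp with 3 GATA motifs and 1 composite. CEBPE, a factor of late granulocyte maturation, had 3 of 271 to 1213 bp. ID2 had 2, CSF1R 1 of 596 bp at an alternative TSS and CD33 1 of 233 bp, whose central bases occurred 25 times in hg38.

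The study named 19 candidate targets of LDB1, of which 17 are protein-coding genes. Of these, 5 had a promoter peak (29.4%, 13.3 to 53.1%). They were LYL1, SPI1, FAM117A with 2 peaks of 270 and 241 bp, CELF2 with 2 of 246 and 236 bp, and SLC25A45 with 1 of 246 bp. Of 53 self-renewal genes that the study listed, 16 did (30.2%, 19.5 to 43.5%). The longest peaks among them, beside those of NFE2, LYL1 and ABCB10, were at STAT3 (1667 bp), SLC7A8 (1537 bp) and CCND3 (cyclin D3, 1344 bp). Each of these lay near alternative TSS only. The central bases of the STAT3 peak occurred 3 times in hg38. The nearest canonical TSS was that of STAT5A for the STAT3 peak and that of CEBPE for the SLC7A8 peak. The candidates were picked in the study with LDB1 binding in the same cell line, so that their count is not independent evidence. Among the longer peaks alone, the share of candidates was 11.8%. Counting canonical TSS only, the shares were 23.5% of candidates and 20.8% of self-renewal genes, against 3.43% of all genes. Both lists had a median of 10 distinct TSS per gene, against 5 for all genes. The self-renewal list was titled in the study as genes lowered in NB4 cells after LDB1 knockdown, a measurement on other samples, while its text counts fewer genes than are listed.

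Lists of genes active in most cells had few promoter peaks. A promoter peak was found at 1 of 86 cytosolic ribosomal protein genes (1.16%, 0.206 to 6.30%), namely RPLP1, at 1 of 77 mitochondrial ribosomal protein genes (MRPS27) and at 1 of 39 proteasome subunit genes (PSMD9). Histone genes of the clusters had 3 of 73, among them H4C8 with 685 bp at -8 bp. Of 508 ZNF zinc finger genes 16 did (3.15%, 1.95 to 5.05%). Further gene families were also counted. Olfactory receptors had 5 of 415 (1.20%, 0.516 to 2.79%), keratins and keratin-associated proteins 6 of 149 (4.03%) and HOX genes 1 of 39 (HOXB3). Among these lists, the intervals of the ZNF genes and of the olfactory receptors lay below 6.09%, and those of the others included it. Of 24 genes of liver, muscle and nerve, 5 had a promoter peak at any TSS (20.8%, 9.24 to 40.5%), an interval above 6.09%, but only 1, TNNI3, had it at the canonical TSS (4.17%).

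Of 24 genes of the integrated stress response, 6 had a promoter peak (25%, 12 to 44.9%), and 4 had one at the canonical TSS (16.7%). The 6 were PHGDH, DDIT4 with 1744 bp at -432 bp with 3 GATA motifs and 1 composite, SLC7A5 with 458 bp, CREB3L1 with 362 bp, SLC3A2 with 253 bp and EIF2AK1, the heme-regulated kinase, with 240 bp at 45 bp. Of 24 immediate early genes, BTG2 had a promoter peak of 1846 bp at 507 bp, MYC one of 665 bp at -3 bp, NR4A1 one of 376 bp and FOSL2 one of 265 bp, which made 4 (16.7%, 6.68 to 35.9%).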

How the data were processed

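CUT&Tag on NB4 cells was done by the authors, with 1 LDB1 and 1 IgG library. Per the labels, reads were aligned to hg38 with Bowtie2 2.4.4 and peaks were called with MACS3 3.0. Whether IgG was the control is not given in the sources used here. Without one, peaks may include open or repeated sequence. The deposited columns were start, end and length, with end minus start plus 1 equal to the length.

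Midpoints were compared with TSS of GENCODE release 44, ties going to the canonical transcript. Motifs were exact letters, sought in 200 bp around the midpoint. Copies of the central 31 bases were counted in hg38. GC classes were 5 points wide, each with at least 20 other peaks. Named were the 10 longest promoter peaks, the 10 with a composite nearest to the TSS, at most 10 genes with the most promoter peaks, up to 6 members of each list, peaks at the 1000 bp limit, and LMO2, LDB1, LYL1 and the candidates. Others were named after their values were seen, and some members are not reported here. Members and lists were chosen with earlier results of these data known. Alternatives were other TSS windows, canonical TSS, the longest peaks, merged peaks, unique sequence, every gene in reach, a motif window of 100 bp and GC classes. Counting was tested on simulated data. Scripts ran on Python 3.11.15 with pysam 0.24.0, matplotlib 3.10.9, SciPy 1.17.1, pandas 2.3.3 and numpy 2.4.6.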

Additional observations from a re-analysis of the deposited data

How the results depend on the processing

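With 1 library, no replicate could be left out. No paired analysis was possible because LDB1 and IgG were represented by a single library apiece. Height, score and depth are not in the file, so weak and strong peaks could be ranked by length only. The number of promoter peaks was 1091 with a TSS window of 500 bp, 2162 with 2000 bp, 1327 after merging peaks under 1000 bp apart, 1445 with unique central bases only, 727 with canonical TSS and 794 among the longer peaks, those from the median length upwards. The percent of genes with one was 4.79 with a TSS window of 500 bp, 8.002 with 2000 bp, 3.43 with canonical TSS, 3.42 among the longer peaks and 6.48 with every gene in reach. The share that covered the TSS was 69.2% at 500 bp, 36.5% at 2000 bp, 42.2% with canonical TSS, 66.5% among the longer and 56.4% after merging peaks under 1000 bp apart. The GC difference was 9 points at 500 bp, 6 at 2000 bp and 11 with canonical TSS. The GATA difference was -16.4 points at 500 bp, -10.7 at 2000 bp, -20.7 with canonical TSS, -9.97 with a motif window of 100 bp and -0.407 within GC classes. The composite difference was -3.23 points with canonical TSS and 1.32 within GC classes. It moved by less than its counting error at 500 bp, with unique central bases and in whole peaks. There its interval nevertheless lay below 0, at -2.08 (-3.79 to -0.121), -1.93 (-3.53 to -0.155) and -2.40 points (-4.53 to -0.147). Among the longer peaks, the red cell list fell to 51.1% and the candidates to 11.8%. All other values of these main results, and 54 of 64 for the other lists, moved by less than their counting error. Motif searches of whole peaks were added after seeing the data. The causes were not tested.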

Other observations

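All 8-base sequences present in the central 200 bp of 1% or more of the promoter peaks, 4967 in number, were ordered by how far their share there exceeded that in windows 1000 bp away. The highest ratio was 7.56 for AGATAAGC, found in 34 promoter peaks, followed by CAGATAAG at 7.07, found in 53, and AGATAAGA at 5.76, found in 49. Of the 20 highest, 10 contained the GATA core. Sequences with the AP-1 site also stood among them, ATGAGTCA with a ratio of 4.91 and ATGACTCA with 4.73. The AP-1 motif (TGACTCA or TGAGTCA) was in 7.20% of promoter peaks (6 to 8.61%), 9.84% of other peaks and 2.91% of the flanking windows.

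The share of promoter peaks among all peaks differed between chromosomes. On chromosome 19, 154 of 559 peaks were promoter peaks (27.5%, 24 to 31.4%), and on chromosome 22, 67 of 300 (22.3%, 18.0 to 27.4%). On chromosome 13 they were 10 of 165 (6.06%, 3.32 to 10.8%), on chromosome 20 they were 7.49% and on chromosome X 14.1%. Per gene, chromosome 22 had the highest share, with a promoter peak at 49 of 447 protein-coding genes (11%, 8.39 to 14.2%), and chromosome 4 the lowest, with 18 of 757 (2.38%, 1.51 to 3.73%).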
